A study of Mus musculus with 31 samples.

Results

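The 31 mouse brain libraries of this study differed widely in Fos, the mRNA of the immediate early transcription factor c-Fos, and 20 of them were set against each other here by that level: 10 high Fos and 10 low Fos libraries. The libraries were chosen by their Fos level in CPM, the count divided by a library's total without the mitochondrial genes and scaled up by the usual constant. Within the control libraries the 4 highest and the 4 lowest were taken, and within the deltamethrin libraries the 6 highest and the 6 lowest, which left 11 libraries in neither class. Measured values of Fos chose the libraries, so its own difference between the classes is a description and was not tested. The tests between the classes concern genes other than Fos, with agent (control or deltamethrin) as a covariate.

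The study asked what exposure during development to the pyrethroid deltamethrin, which keeps neuronal sodium channels open for longer, does to the mouse brain, with MAP kinase and circadian pathways named in its title. Total RNA from aliquots of brain homogenate was sequenced in 13 control and 18 deltamethrin libraries. The labels distinguish the groups by agent alone: no strain, genotype, sex, litter, dose, age or time of collection is given, and neither is the interval between handling and tissue collection. The labels do not state that the libraries came from separate animals, so the p-values measure the spread between these libraries.

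Fos belongs to the immediate early genes, which neurons transcribe within minutes of strong synaptic input without first making new protein. Calcium entry and MAP kinase signalling activate CREB, SRF and their partners, many of them already bound near genes such as Fos, Egr1, Arc, Nr4a1 and Junb. The products are transcription factors, synaptic proteins and inhibitors such as the dual-specificity phosphatases, which shut the MAP kinases off again, so that the mRNAs rise and fall quickly. In a homogenate of many cell types, more cells with a transcript and more transcript per cell cannot be told apart.

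The start-site windows of Fos and of 4 genes that rose with it, Dusp1, Ccn1, Nr4a1 and Npas4, are printed to show how far the best-known activity-linked promoter element is shared among these 5. Egr1 and Arc, which also rose, are not among the windows shown. Each window spans 250 bases before and 50 bases after the gene's start in RefSeq (GRCm38.p6). Capitals mark the CREB-binding half-site TGACG, searched on both strands, so that it also reads CGTCA, and an overlapping pair of both is the full element TGACGTCA. The windows lie at chr12:85473640-85473939, plus strand for Fos, chr17:26508423-26508722, minus strand for Dusp1, chr3:145649936-145650235, minus strand for Ccn1, chr15:101266596-101266895, plus strand for Nr4a1, and chr19:4989922-4990221, minus strand for Npas4.
Fos: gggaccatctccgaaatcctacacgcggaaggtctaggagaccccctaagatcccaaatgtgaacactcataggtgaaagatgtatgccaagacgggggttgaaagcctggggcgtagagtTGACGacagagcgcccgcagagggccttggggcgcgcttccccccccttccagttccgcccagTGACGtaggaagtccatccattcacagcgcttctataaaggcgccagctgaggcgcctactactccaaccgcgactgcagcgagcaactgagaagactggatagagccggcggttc
Dusp1: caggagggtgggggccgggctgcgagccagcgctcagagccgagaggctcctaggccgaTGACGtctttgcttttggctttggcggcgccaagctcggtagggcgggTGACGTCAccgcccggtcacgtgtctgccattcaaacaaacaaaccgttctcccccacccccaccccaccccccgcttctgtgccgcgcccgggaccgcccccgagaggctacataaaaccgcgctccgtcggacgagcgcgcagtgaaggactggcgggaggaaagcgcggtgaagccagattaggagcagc
Ccn1: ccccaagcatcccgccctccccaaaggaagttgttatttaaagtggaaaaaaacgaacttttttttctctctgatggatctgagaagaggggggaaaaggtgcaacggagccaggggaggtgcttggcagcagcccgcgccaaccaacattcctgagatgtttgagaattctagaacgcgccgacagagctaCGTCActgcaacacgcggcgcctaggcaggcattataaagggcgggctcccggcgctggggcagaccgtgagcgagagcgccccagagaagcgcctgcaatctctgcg
Nr4a1: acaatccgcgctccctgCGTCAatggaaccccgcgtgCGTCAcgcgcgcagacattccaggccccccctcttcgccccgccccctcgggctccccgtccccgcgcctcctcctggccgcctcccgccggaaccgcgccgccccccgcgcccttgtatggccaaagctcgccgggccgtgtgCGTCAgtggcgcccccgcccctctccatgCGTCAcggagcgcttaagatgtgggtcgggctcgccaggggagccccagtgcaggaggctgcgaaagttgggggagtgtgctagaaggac
Npas4: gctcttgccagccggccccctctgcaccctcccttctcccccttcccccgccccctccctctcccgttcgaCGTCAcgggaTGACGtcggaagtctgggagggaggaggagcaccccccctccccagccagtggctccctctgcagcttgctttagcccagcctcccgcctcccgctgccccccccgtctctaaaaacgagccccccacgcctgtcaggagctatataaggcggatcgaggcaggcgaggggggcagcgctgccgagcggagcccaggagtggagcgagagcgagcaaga

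All 5 printed windows held the half-site, with 2 matches in Fos, 3 in Dusp1, 1 in Ccn1, 4 in Nr4a1 and 2 in Npas4, and it occurred in 20.8% of 32851 RefSeq windows of the same length. The full element was found in Dusp1, 143 bases before the start, and in 1.79% of all windows. The AP-1 site TGANTCA (7.81% of windows) and the CArG box bound by SRF (1.63%) were not found in these 5 windows. A match is a run of letters and no measurement of binding in these brains.

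Fos ran from 3.20 to 52.6 CPM over the 31 libraries, on 45 to 1187 counts. The 4 low control libraries had 3.20, 3.56, 3.8 and 4.56 CPM (replicates 7, 13, 5 and 2) and the 4 high ones 16.8, 20.1, 23.1 and 52.6 CPM (replicates 8, 9, 3 and 10). The 6 low deltamethrin libraries had 3.47, 3.85, 3.98, 4.12, 4.37 and 4.61 CPM (replicates 13, 15, 12, 8, 2 and 16) and the 6 high ones 8.19, 9.02, 9.76, 11, 12.2 and 45.7 CPM (replicates 18, 9, 1, 14, 11 and 5). Low libraries of both agents thus lay in the same range, while all 4 high control libraries lay above every deltamethrin library except replicate 5. The 5 control libraries in neither class had 6.16 to 13.2 CPM and the 6 deltamethrin libraries 4.65 to 8.19 CPM, so unselected control replicates 1 and 4, at 13.2 CPM each, exceeded all high deltamethrin libraries but replicate 5.

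The thresholds fell in a gap among the control libraries and in a continuum among the deltamethrin libraries. In control, 4.56 CPM was taken as low and the next library had 6.16, and 16.8 CPM was taken as high with the next at 13.2. In deltamethrin, replicate 16 (4.61 CPM) was taken as low and replicate 17 (4.65 CPM) was not. Deltamethrin replicate 18, taken as high on 201 counts, and replicate 3, left out on 269 counts of a larger library, were both at 8.19 CPM. Across all 31 libraries, a comparison the choice within agent did not use, Fos had a median of 9.67 CPM in control and 6.43 CPM in deltamethrin. The mean log2 level differed by -0.52, deltamethrin minus control, which was within the spread of the libraries (two-sided permutation test, p = 0.181).

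**Figure D1:**
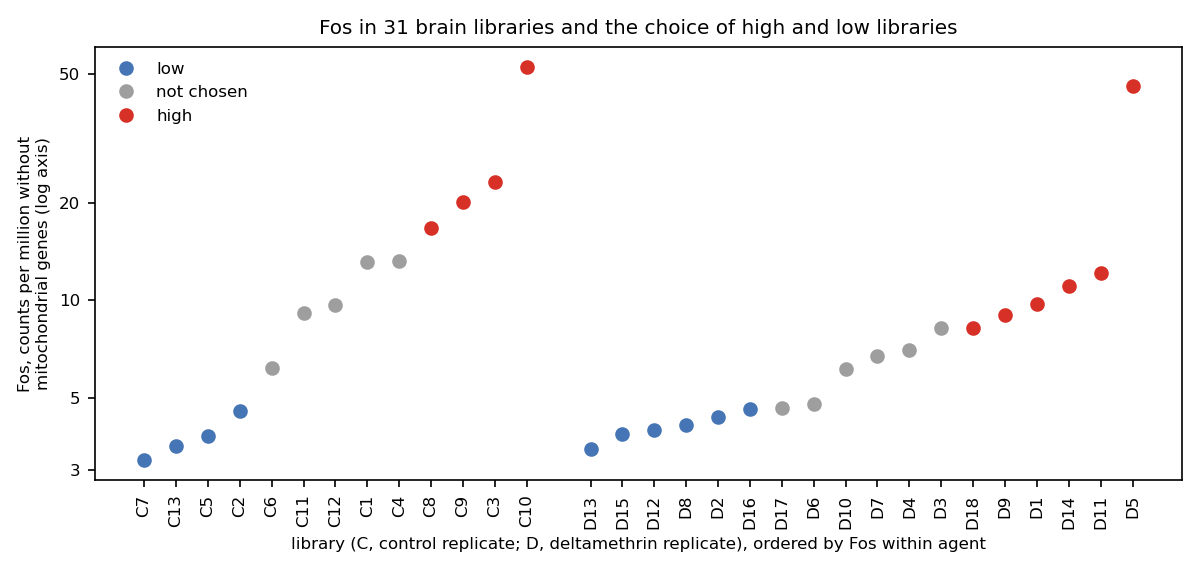
Fos in each of the 31 libraries, in CPM of the total without mitochondrial genes on a log axis, ordered within agent along the horizontal axis (C, control replicate; D, deltamethrin replicate). Blue, grey and red points are low, unselected and high libraries; C10 (52.6 CPM) and D5 (45.7 CPM) stand above all others.

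Control replicate 10 and deltamethrin replicate 5 stood apart in Fos, and for part of the results the values without both are also given. Total counts ranged from 17570311 to 38680621. The mitochondrial rRNA share was 12.7 ± 3.89% in the high and 17.6 ± 10.3% in the low libraries (SD, n = 10 each), a difference of -4.96 percentage points within the spread (two-sided exact permutation test within agent, p = 0.189, adjusted 0.568 over 3 measures). It was 40.2% in control replicate 2, a low library with the smallest total. The classes differed by 1643710 in mean total count (exact permutation p = 0.461, adjusted 0.691) and by 120 detected genes (p = 0.776). No library repeated another within counting noise: over 465 pairs of the 31 libraries the smallest chi-square per degree of freedom was 5.66. That value cannot tell separate animals from separate preparations of 1 homogenate.

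Across the genome, the high and low Fos libraries differed in a handful of genes, all of them immediate early genes and all higher in the high libraries. Of 20029 genes tested with edgeR's quasi-likelihood test, 6 had an adjusted p under 0.05 (0.03% of genes tested), 6 of them higher (0.03%) and 0 lower (0%). They were Egr1, Dusp1, Ccn1, Nr4a1, Npas4 and Arc. At an unadjusted p under 0.05 there were 637 higher genes (3.18%) and 681 lower genes (3.4%), 6.58% together, so beneath the adjusted threshold the 2 directions were about even. DESeq2 called 15 genes. The median log2 fold change over all genes was -0.0027.

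Egr1 (ENSMUSG00000038418) encodes a zinc-finger transcription factor that serves as a standard marker of neuronal activity. In the low libraries it had 40.0, 44.9, 40.5 and 33.5 CPM in control replicates 7, 13, 5 and 2, and from 39.8 to 52 CPM in deltamethrin. The 4 high control libraries had 67.0 to 90.4 CPM and the 6 high deltamethrin libraries 56.6, 57.0, 80.2, 61.4, 73.9 and 104 CPM in order of Fos. All 10 high libraries were above all 10 low ones, which held for 2 genes of all those tested (0.00999%), Egr1 and Egr4. The mean was 75.7 ± 15.4 CPM against 44.0 ± 5.80 CPM (SD, n = 10 each), a log2 fold change of 0.79 ± 0.11 (SE, adjusted p = 0.00541). Without control replicate 10 and deltamethrin replicate 5 it was 0.69 (adjusted p = 0.0184), and it passed in all 20 fits with a single library removed.

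Dusp1 (ENSMUSG00000024190, chromosome 17, 26505590 to 26562128, minus strand; GENCODE M21 on GRCm38, as for the genes below), whose start window above holds the full CREB element, encodes a phosphatase that inactivates MAP kinases. Low libraries had 18.9, 24.4, 21 and 28.1 CPM in control and 14.3 to 23.4 CPM in deltamethrin. High libraries had 40.0, 39.0, 44.1 and 53.8 CPM in control and 23.6, 30.2, 27.5, 27.7, 33.3 and 46.0 CPM in deltamethrin. The classes did not overlap within either agent, which held for 3 genes of all those tested (0.015%): Dusp1, Egr1 and Egr4. The log2 fold change was 0.76 ± 0.12 (SE, adjusted p = 0.0152), and 0.64 (adjusted p = 0.0409) without the 2 libraries of highest Fos.

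Nr4a1 (ENSMUSG00000023034, chromosome 15, 101254269 to 101274795, plus strand), an orphan nuclear receptor induced by calcium and cAMP, more than doubled in mean level, from 22.2 ± 3.99 to 51.9 ± 24.4 CPM (SD, n = 10 each). It had 18.4 to 24.7 CPM in the low and 43.2, 57.9, 56.4 and 83.1 CPM in the high control libraries, with no overlap. High control libraries lay above all low ones for 1.5% of all genes tested. In deltamethrin the low libraries had 14 to 27.4 CPM and the high ones 27.8, 33.0, 40.9, 25.5, 48.6 and 102 CPM, so that replicate 14 (25.5 CPM) fell inside the low range. The log2 fold change was 1.22 ± 0.20 (SE, adjusted p = 0.0244), and 0.91 (adjusted p = 0.0384) without the 2 libraries of highest Fos.

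Npas4 (ENSMUSG00000045903, chromosome 19, 4984355 to 4990316, minus strand), a transcription factor induced in neurons by depolarisation, had the largest log2 fold change of the 6 genes. Its low control libraries had 7.57, 11.8, 3.52 and 12.5 CPM and its high ones 25.5, 26.4, 34.4 and 43.6 CPM, without overlap. The control classes were apart in this direction for 1.5% of all genes tested. Deltamethrin libraries had 4.13 to 10.9 CPM in the low class and 13.5, 16, 6.14, 23.5, 10.4 and 45.8 CPM in the high class, where replicates 1 and 11 overlapped the low range. The log2 fold change was 1.73 ± 0.29 (SE, adjusted p = 0.0244). It was 1.38 without the 2 libraries of highest Fos and no longer passed (adjusted p = 0.0860).

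Arc (ENSMUSG00000022602, chromosome 15, 74669083 to 74672570, minus strand) encodes a protein of the postsynapse that controls the removal of AMPA receptors and whose mRNA travels into dendrites. It was at 64.3, 78.0, 65.1 and 80.3 CPM in the low and 152, 171, 159 and 281 CPM in the high control libraries. In deltamethrin the low libraries had 66.5, 62.4, 70.7, 107, 55.1 and 77.5 CPM and the high ones 93.7, 114, 106, 111, 121 and 404 CPM. The low replicate 8 (107 CPM) thus exceeded high replicates 18 and 1, and replicate 5 was more than 3 times any other deltamethrin library. The log2 fold change was 1.23 ± 0.22 (SE, adjusted p = 0.0470). It was 0.81 without the 2 libraries of highest Fos (adjusted p = 0.020), yet Arc passed in 6 of the 20 fits that left out 1 library.

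Ccn1 (ENSMUSG00000028195, chromosome 3, 145646976 to 145649981, minus strand), a secreted matrix protein known as an early gene of growth factor and SRF signalling, was the least abundant of the 6. It had 1.81 to 3.37 CPM in the low and 4.88, 6.24, 8.86 and 9.49 CPM in the high control libraries. In deltamethrin it had 1.39 to 2.71 CPM in the low and 2.44 to 6.46 CPM in the high libraries, which overlapped. The log2 fold change was 1.10 ± 0.18 (SE, adjusted p = 0.0211), and 0.91 without the 2 libraries of highest Fos, where it did not pass (adjusted p = 0.0535).

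**Figure D2:**
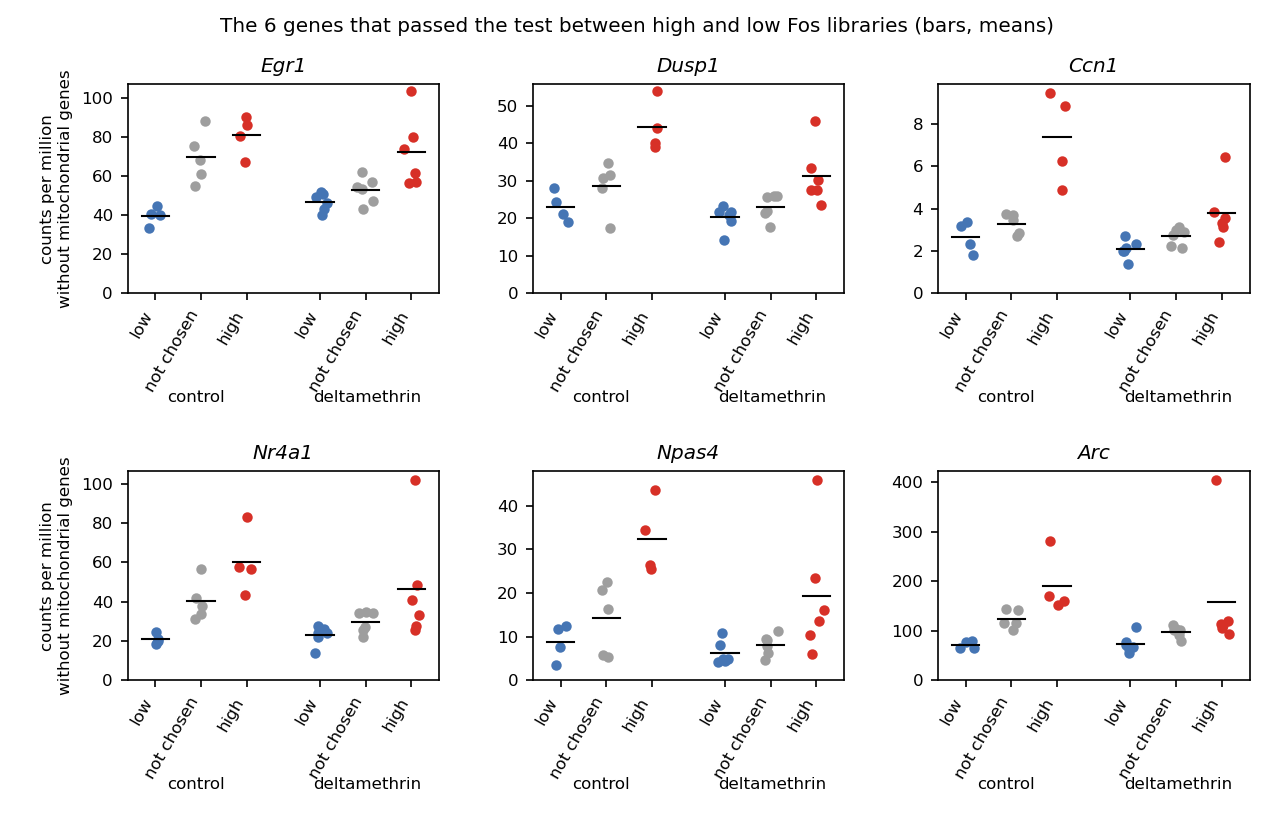
CPM without mitochondrial genes (vertical axis, from 0) of the 6 genes that passed, by agent and Fos class, with 1 point for each of the 31 libraries and bars for means. Low and high control libraries do not overlap for any of the 6, while the deltamethrin classes are separate for Egr1 and Dusp1. Over all genes tested, the high libraries lay above all low ones for 1.5% in control and 0.0349% in deltamethrin.

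The count of 6 depended on single libraries. Over the 20 fits that each left out 1 library it ran from 1 to 11. It fell to between 1 and 3 without any of control replicates 2, 3, 5, 7, 10 or 13 or deltamethrin replicates 2, 12, 13 or 15, and rose to 11 without deltamethrin replicate 1. Dusp1 passed in 18 of these fits, Ccn1 in 14, and Npas4 and Nr4a1 in 10 each. Without control replicate 10 and deltamethrin replicate 5 together, 6 genes passed (0.0296%): Egr1, Egr4, Arc, Nr4a1, Dusp1 and Junb.

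The early genes as families were read from 6 lists of 84 genes, of which 83 were tested. In them 75 of 83 log2 fold changes were positive, against 49.2% of all genes tested, and the median was 0.26. The 6 genes that passed were all list members, and 46 list members had an unadjusted p under 0.05 in the higher and 0 in the lower direction. Over all genes tested these shares were 3.18% and 3.4%, which also stand beside the counts of each list below. These lists hold known partners of Fos induction, so their direction beside Fos is no independent finding. Members that did not pass are given as values, and those outside the naming rule, Egr2 among them, were chosen after their values were seen.

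Among the Egr and Nr4a factors, 2 of 8 passed (Egr1 and Nr4a1), and 8 of 8 had an unadjusted p under 0.05 with a positive fold change, with a median of 0.71. Egr2, which encodes a factor also known from myelinating glia, had the largest log2 fold change of any gene tested, 2.23 ± 0.46 (SE, adjusted p = 0.144). It had 0.861 to 1.22 CPM in the low and 2.49, 4.65, 4.76 and 9.76 CPM in the high control libraries. In deltamethrin the high libraries had 1.40 to 2.09 CPM except replicate 5, which had 19.7 CPM, and the low ones 0.608 to 1.92 CPM. Without the 2 libraries of highest Fos its log2 fold change was 1.21 (adjusted p = 0.116).

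Egr4 had 11.9 to 17.4 CPM in the low and 18.1 to 56.8 CPM in the high libraries, without overlap. Its log2 fold change of 0.98 ± 0.19 (SE) missed the threshold (adjusted p = 0.0823), but without the 2 libraries of highest Fos, where it was 0.63, it passed (adjusted p = 0.0184). Egr3 (0.64 ± 0.16), Nr4a3 (0.43 ± 0.16), Nab2 (0.24 ± 0.09), which encodes a repressor of the Egr factors, and Nr4a2 (0.23 ± 0.10) did not pass.

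Of the 8 AP-1 partners tested, which pair with c-Fos or stand in for it in the AP-1 dimer, 0 passed, 6 had an unadjusted p under 0.05, and 8 of 8 fold changes were positive (median 0.46). Batf was too low to be tested. Junb had 22.9, 35 and 48.8 CPM as the lowest, median and highest of the low libraries and 40.1, 61.4 and 176 CPM of the high ones. Its log2 fold change was 1.19 ± 0.24 (SE, adjusted p = 0.107), and 0.73 (adjusted p = 0.0448, which passes) without the 2 libraries of highest Fos.

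Fosb had 3.24 to 7.22 CPM in the low libraries and 6.79 to 13 CPM in 8 of the high ones, with 44.9 CPM in control replicate 10 and 43.5 CPM in deltamethrin replicate 5. Its log2 fold change of 1.43 ± 0.36 (SE, adjusted p = 0.591) became 0.60 without these 2 libraries. Jun (0.28 ± 0.09) and Jund (0.17 ± 0.08) did not pass. Atf3, a factor linked to cell stress and injury, was at 0.333 to 0.900 CPM in the low libraries and at 0.485 to 0.709 CPM in 8 high libraries, but at 1.77 and 5.18 CPM in control replicate 10 and deltamethrin replicate 5.

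Of 16 other early transcription factors 1 passed, Npas4, and 14 were positive (median 0.27). Ier2 (0.63 ± 0.13, adjusted p = 0.176), Maff (0.85 ± 0.26) and Csrnp1 (0.39 ± 0.13) were among the 11 with an unadjusted p under 0.05, while Klf6 (-0.01) and Crem (-0.02) were near 0. Per1, a clock gene that CREB also drives, had a log2 fold change of 0.35 ± 0.11 and did not pass.

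The list of early signalling feedback genes, which includes inhibitors of the MAP kinase cascade or of CREB activity, had 1 of 19 members passing (Dusp1), and 17 positive (median 0.28). Trib1, a pseudokinase scaffold for protein degradation, had 9.85 to 15.5 CPM in the low and 13.4 to 24.0 CPM in the high libraries (log2 fold change 0.52 ± 0.11, adjusted p = 0.144). Sik1, a kinase that restrains CREB co-activators, was at 0.39 ± 0.10. Dusp4 (0.50) and Dusp6 (0.54), MAP kinase phosphatases, had unadjusted p under 0.05, whereas Spry1 (0.03), Spred1 (-0.06) and Spred2 (-0.08), which act near Ras and Raf, were near 0.

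In the list of growth arrest and RNA decay genes 1 of 15 passed (Ccn1), and 13 were positive (median 0.15). Btg2, an anti-proliferative factor that recruits deadenylases, had 9.37 to 17.1 CPM in the low and 13.4 to 42.7 CPM in the high libraries (0.83 ± 0.17, adjusted p = 0.144). Gadd45b (0.62) and Gadd45g (0.58), linked to DNA demethylation and stress kinases, had unadjusted p under 0.05, and Gadd45a was at 0.01. Zfp36, whose product binds AU-rich early mRNAs, was at 0.10.

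In the list of synaptic and secreted effectors 1 of 17 passed (Arc), and 15 were positive (median 0.16). Nptx2, a secreted pentraxin that clusters AMPA receptors, had 13.6 to 38.7 CPM in the low libraries and 29.9 to 40.2 CPM in 8 high ones, with 122 CPM in control replicate 10 and 91.2 CPM in deltamethrin replicate 5. Ptgs2, the inducible cyclooxygenase, had 4.42 to 7.87 CPM in the low and 5.46 to 8.90 CPM in 8 high libraries, but 24.4 and 53.6 CPM in the same 2. Its log2 fold change of 1.04 ± 0.37 (SE, adjusted p = 0.732) was 0.11 without them.

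The neurotrophin gene Bdnf was at 0.39 ± 0.14, and Homer1, whose short isoform is activity-induced, at 0.03 ± 0.14 (SE, adjusted p = 0.961). Homer1 had 111 to 209 CPM in the low and 105 to 231 CPM in the high libraries, which overlapped throughout. The counts are per gene, so a change of the short isoform alone was not measured.

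No gene of the upstream cascade passed. Of 41 MAP kinase, CREB and SRF regulators (0 passing), 21 were positive and 20 negative, and the median was 0.01, beside -0.0027 over all genes. Map2k1, the kinase MEK1, had 154 to 238 CPM in the low and 227 to 277 CPM in the high libraries (0.17 ± 0.07, unadjusted p = 0.0270), and Rps6ka5, the kinase MSK1, was at -0.35 ± 0.17 (unadjusted p = 0.0488). Low control replicates 2 and 7 had 113 and 70.1 CPM of Rps6ka5. The other low libraries had 37.8 to 54.1 CPM and the high ones 32.1 to 51.0 CPM. Replicates 2 and 7 also had the lowest Map2k1, 154 and 193 CPM, and mitochondrial rRNA shares of 40.2% and 27.4%. mRNA levels say nothing of kinase activity.

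No gene of the hormone and heat shock lists passed either. Of 14 glucocorticoid targets tested 0 passed, 14 were positive (median 0.23) and 5 had an unadjusted p under 0.05, among them Ddit4 (0.32 ± 0.10), Nfkbia (0.32 ± 0.12) and Cdkn1a (0.39 ± 0.15). Fkbp5 (0.13) and Sgk1 (0.23) were positive as well but not among the 5. Over all genes tested 49.2% were positive, and 3.18% had an unadjusted p under 0.05 in the higher direction. Whether a hormone lay behind these values was not tested. Of 13 heat shock genes 0 passed and 12 were positive (median 0.08), with Dnajb1 at 0.25 ± 0.08. Of 14 inflammatory early genes of glia 5 were abundant enough to test and 0 passed. Ccl2, Ccl3, Ccl4, Cxcl1, Cxcl2, Cxcl10, Il1b, Il6 and Tnf were too low to be tested.

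Of 16 clock genes 0 passed and 11 were positive (median 0.06). Nfil3, a repressor of D-box genes, was at 0.30 ± 0.10, and Per2 had 22.1 to 36.8 CPM in the low and 25.8 to 44.5 CPM in the high libraries (0.24 ± 0.08, SE, unadjusted p = 0.00629). Dbp (0.05), Nr1d1 (0.15) and Arntl (-0.03) did not pass.

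**Figure D3:**
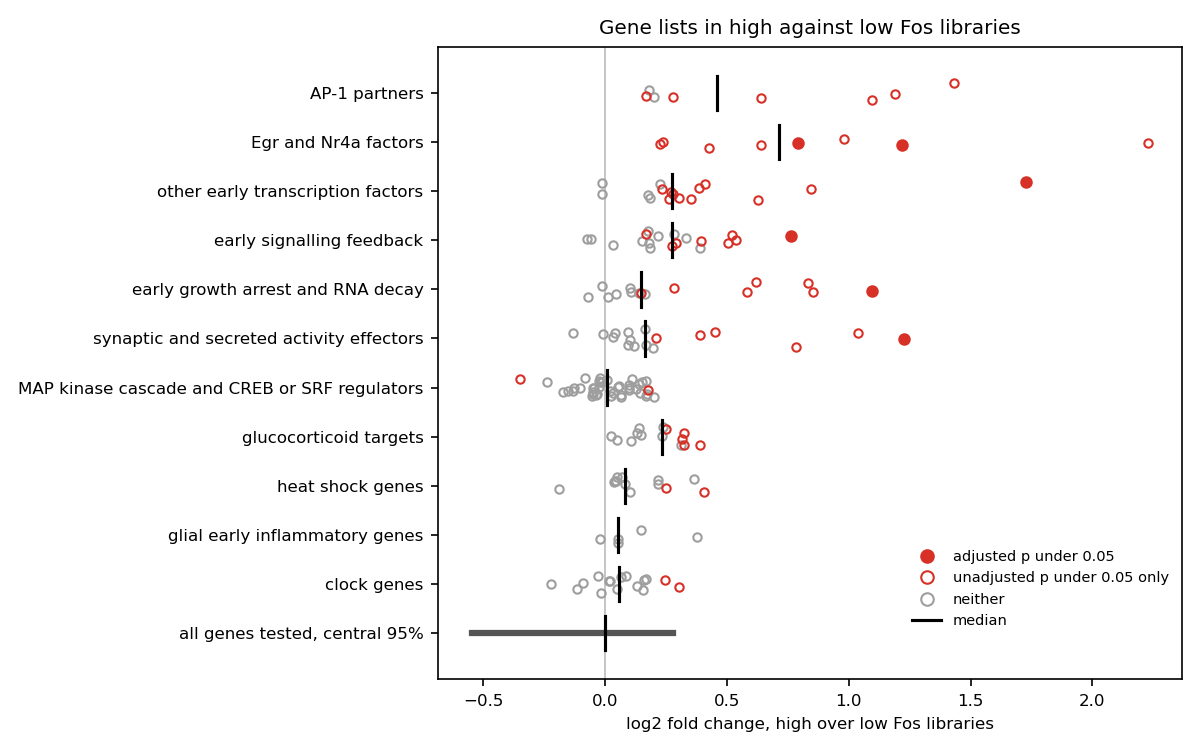
Log2 fold change of high over low Fos libraries (horizontal axis) for each tested member of 11 gene lists (rows), with bars at list medians; filled red points passed at an adjusted p under 0.05 and open red points only unadjusted. The bottom row gives the central 95% of all genes tested, -0.55 to 0.28, and the Egr and Nr4a list has the largest median, 0.71.

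The contrast was then taken within each agent. In the 8 control libraries alone 2 of 19007 genes passed (0.0105%; 8.24% at an unadjusted p under 0.05), Nr4a1 (log2 fold change 1.5 ± 0.19, SE) and Egr1 (1.02 ± 0.13), each with an adjusted p of 0.0467. In the 12 deltamethrin libraries 0 of 19352 passed in edgeR's test (0%), with 296 genes at an unadjusted p under 0.05 (1.53%). There Egr1 was at 0.63 ± 0.15, Dusp1 at 0.65 ± 0.15, Nr4a1 at 1.03 ± 0.29, Npas4 at 1.62 ± 0.41, Arc at 1.11 ± 0.33 and Ccn1 at 0.87 ± 0.21. High control libraries were above all low control libraries for 300 genes (1.5%), and high deltamethrin libraries above all low deltamethrin libraries for 7 genes (0.0349%). The number of libraries differs between the agents, and with it the chance of such a separation.

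Of 83 early genes, 66 had a larger fold change in control than in deltamethrin, and 66 were positive in both. Over the 18802 genes fitted in both agents these shares were 49.4% and 28.2%. The high control libraries also had more Fos than the high deltamethrin libraries, 28.2 ± 16.5 CPM (SD, n = 4) against 16 ± 14.6 CPM (SD, n = 6), so the contrast itself was wider in control. A direct test of whether the high against low difference depended on the agent called 0 of 20607 genes in edgeR's test (0%), with 1220 at an unadjusted p under 0.05 (5.92%) and a smallest adjusted p of 0.759. Egr3 and Fosl2 had unadjusted interaction p-values of 0.0363 and 0.0312, with fold changes of 1.05 and 1.06 in control and 0.37 and 0.36 in deltamethrin. Atf3 was at 0.34 in control and 1.56 in deltamethrin, where 1 library, replicate 5, carried it.

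**Figure D4:**
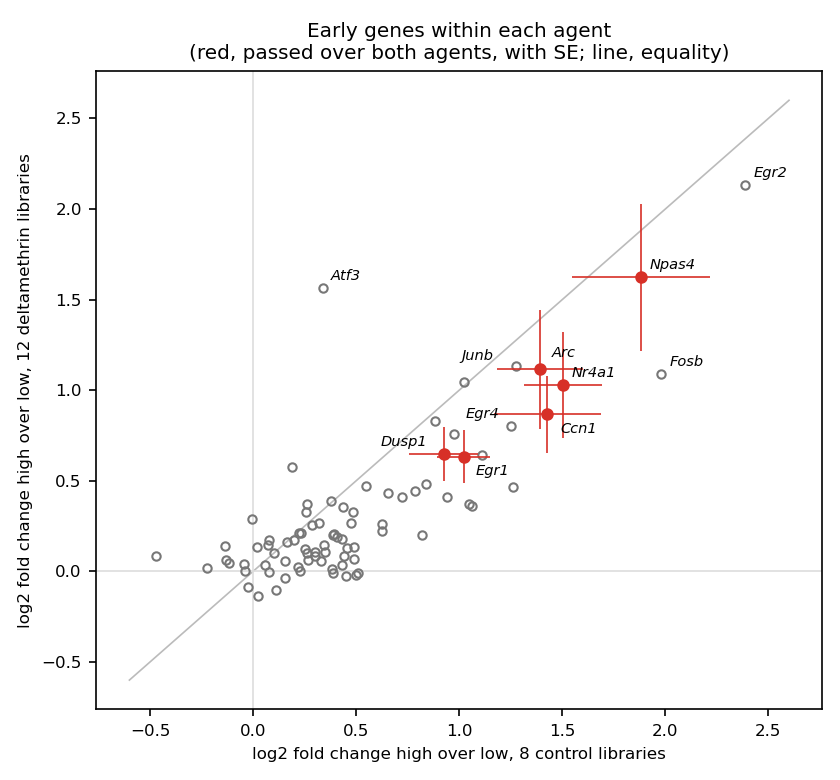
Log2 fold change of high over low libraries for the 83 tested early genes within control (horizontal axis) and within deltamethrin (vertical axis); red points are the 6 genes that passed over both agents, with bars of 1 SE, and the line marks equality. Most points (66 of 83) lie below the line, and Atf3 is far above it.

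The 11 libraries in neither class give the same genes in samples that the choice did not use, over a narrower range of Fos (4.65 to 13.2 CPM). Each gene was fitted against log2 Fos with agent as covariate, and 0 of 21321 genes passed in edgeR's test (0%). At an unadjusted p under 0.05 there were 345 positive (1.62%) and 267 negative slopes (1.25%). Npas4 had the smallest p of all genes, with a slope of 1.37 ± 0.36 log2 units per log2 unit of Fos (SE, unadjusted p = 0.00177, adjusted 0.984). In control it ran from 5.35 CPM in replicate 11 to 22.6 CPM in replicate 4, and in deltamethrin from 4.62 CPM in replicate 7 to 11.4 CPM in replicate 4. The slopes of Dusp1 (0.38 ± 0.22), Ccn1 (0.33 ± 0.25), Egr1 (0.29 ± 0.19) and Arc (0.29 ± 0.17) were positive and that of Nr4a1 was -0.05 ± 0.25, all within 2 SE of 0. Of the 83 early genes 45 had a positive slope, beside 49.4% of all genes, and their median slope was 0.04, so the lists as a whole lay near the background here.

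Taking Fos as a number in all 31 libraries, which include the 20 above, 45 of 21315 genes passed with a positive slope (0.211%) and 0 with a negative one (0%). Early list members made up 34 of the 45, and 2 came from other lists (Cdkn1a and Dnajb1). The steepest was Egr2, at 0.95 ± 0.06 log2 units per log2 unit of Fos (SE), followed by Npas4 (0.78 ± 0.08), Fosb (0.69 ± 0.06) and Arc (0.56 ± 0.04), and Nr4a1 was at 0.53 ± 0.05. Egr1 and Dusp1, both at 0.35 ± 0.04, were shallower, although they had the smallest adjusted p-values between the classes. Without control replicate 10 and deltamethrin replicate 5, 13 genes passed (0.062%): Arc, Egr2, Egr1, Egr4, Nr4a1, Ccn1, Junb, Dusp1, Npas4, Fosb, Btg2, Dusp6 and Trib1. Fosb then had a slope of 0.36 and Egr2 of 0.71.

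Those 2 libraries were the 2 highest of all 31 for 34 of the 83 early genes, and for 0.999% of all genes tested. Deltamethrin replicate 5 was the highest library for 29 early genes (1.89% of all genes) and control replicate 10 for 20 (7.04%). The remaining high control libraries, replicates 8, 9 and 3, were above every one of the 4 low control libraries for 46, 45 and 43 of the 83 early genes (55.4%, 54.2% and 51.8%), beside 18.2%, 20.5% and 11.6% of all genes tested. The remaining high deltamethrin libraries were above all 6 low deltamethrin libraries for 17 to 33 of the 83 (20.5% to 39.8%), beside 12.8% to 18.5% of all genes. The lowest of these, replicate 18, had 20.5% beside 12.8%, and replicate 1 had 28.9% beside 18.5%. The counts of the agents are against unequal numbers of low libraries and were not compared. The 5 unselected control libraries exceeded the low range for 35 to 43 of the 83 (42.2% to 51.8%, beside 12.2% to 18.5% of all genes). The unselected deltamethrin libraries did so for 12 to 22 of the 83 (14.5% to 26.5%, beside 14.7% to 25.6% of all genes).

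**Figure D5:**
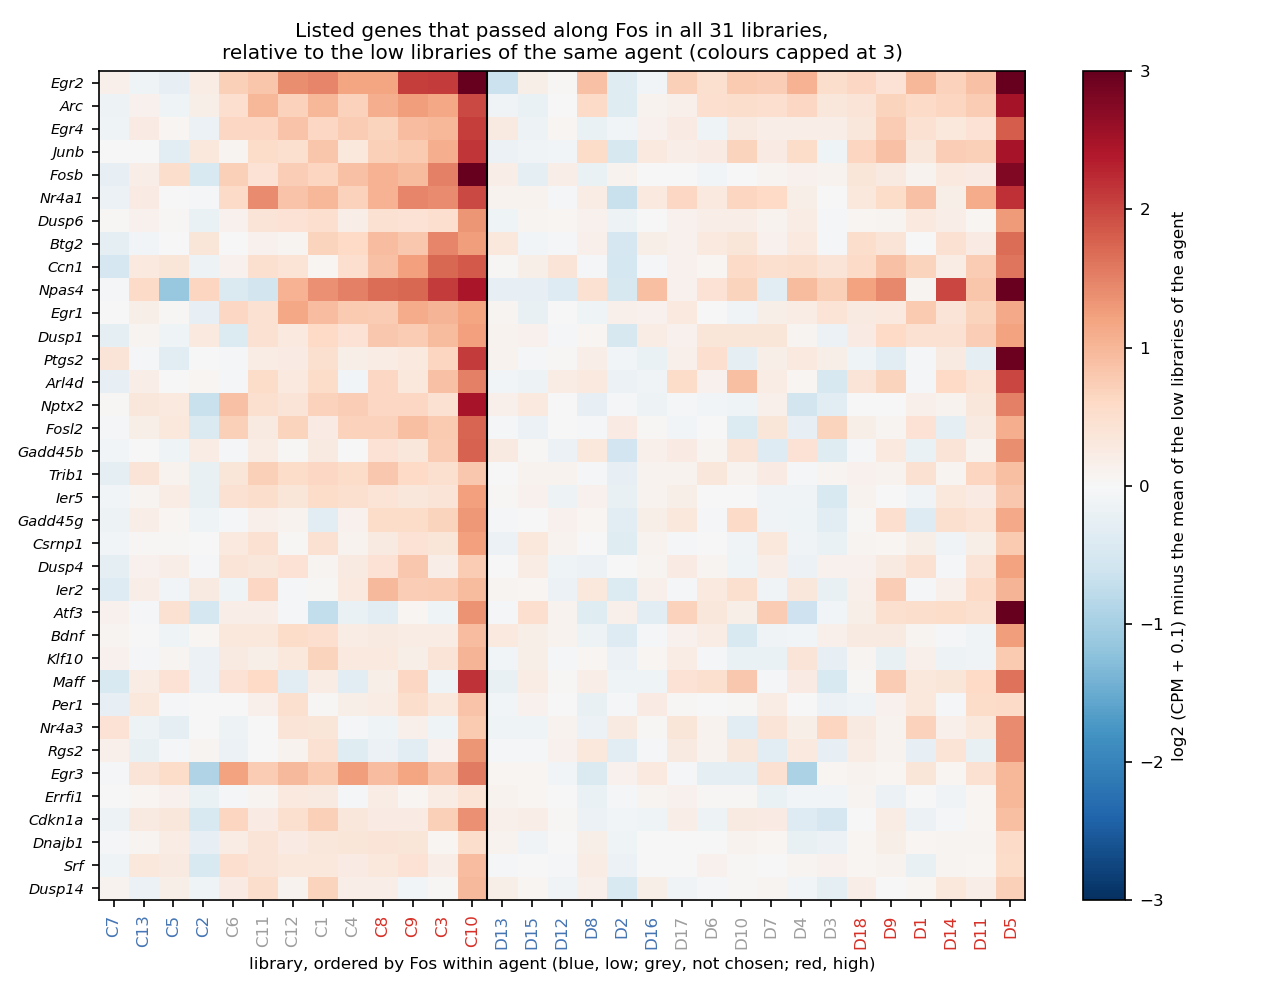
The 36 listed genes that passed along log2 Fos in all 31 libraries (rows, 34 early genes with Cdkn1a and Dnajb1), each library (columns, ordered by Fos within agent) shown as log2(CPM + 0.1) minus the mean of the low libraries of its agent, with colours limited at 3. C10 and D5 are red in nearly every row, while the other high libraries are red mainly in the upper rows, such as Arc, Nr4a1 and Npas4.

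Outside the lists 9 genes passed along Fos in the 31 libraries, chosen here after their values were seen: Sertad1, Mir212, Mir132, 1700016P03Rik, Apold1, Gm13889, Adrb1, Pim3 and Pcdh8. Mir212 (slope 0.54 ± 0.08, SE), Mir132 (0.53 ± 0.08) and the noncoding transcript 1700016P03Rik (0.50 ± 0.08) lie at 1 locus on the plus strand of chromosome 11. The hairpins at 75173388 to 75173478 and 75173682 to 75173747 sit within 1700016P03Rik (75172560 to 75177633), so their reads cannot be assigned to a precursor or to its host. Both microRNAs are known to be induced through CREB in neurons, and their 3p arms, printed here from RefSeq with the seed (bases 2 to 8) in capitals, share that seed.
mmu-miR-212-3p: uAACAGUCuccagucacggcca
mmu-miR-132-3p: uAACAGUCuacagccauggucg

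Mir212 had 0.243 to 1.62 CPM in the low libraries and 0.647 to 3.62 CPM in the high ones, with 3.33 CPM in control replicate 10 and 3.62 CPM in deltamethrin replicate 5. In the high against low comparison its log2 fold change was 1.255 ± 0.29 (SE, adjusted p = 0.395 in edgeR's test), below the threshold. Mir132 had 0.098 to 0.458 CPM in the low and 0.294 to 1.15 CPM in the high libraries, and these ranges overlapped. Sertad1, a small transcriptional co-regulator, had 5.62 to 9.25 CPM in the low libraries and 6.23 to 10.9 CPM in 8 high ones, but 34.2 CPM in control replicate 10 and 20.7 CPM in deltamethrin replicate 5. Apold1, an early gene of blood vessel endothelium, had 2.81 to 4.96 CPM in the low libraries and at most 5.33 CPM in 8 high ones, but 9.58 and 9.21 CPM in those 2.

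Markers of brain regions and cell types were set beside these results, since a homogenate aliquot can hold more or less of a region. Of 17 marker lists 0 had a member that passed, and no marker was without counts in all libraries. Cortical projection neuron markers had 9 of 11 positive fold changes (median 0.15), and their summed level ran from 992 to 1848 CPM in the low libraries (median 1629) and from 1618 to 1885 CPM in the high ones (median 1791). Cerebellar granule and Purkinje cell markers had 10 of 10 negative (median -0.18), with sums of 402 to 1015 CPM in the low (median 706) and 257 to 947 CPM in the high libraries (median 604). Striatal neuron markers had 8 of 10 negative (median -0.11), olfactory bulb markers 6 of 6 positive (0.18), and blood markers 5 of 5 negative (-0.11). Hypothalamic markers had 8 of 9 negative (-0.08) and pituitary markers 3 of 4 (-0.27). Along Fos in the 11 unselected libraries, 0 of 6 olfactory bulb slopes were positive (median -0.58). There 0 of 10 cerebellar and 8 of 11 cortical slopes were positive. With the cerebellar sum as a further covariate 6 genes passed, not the same 6 as in the main analysis. Egr1, Dusp1, Ccn1 and Nr4a1 were among them. The Npas4 log2 fold change was then 1.56 (adjusted p = 0.0897) and the Arc log2 fold change 1.17 (adjusted p = 0.0733), so that neither passed. Between the classes, astrocyte (median 0.03), microglia (0.03), oligodendrocyte (0.08), choroid plexus (0.01) and meninges markers (0.05) stayed close to 0. In the 11 unselected libraries, 1 of 9 oligodendrocyte slopes (median -0.20) and 1 of 11 choroid plexus slopes (-0.54) were positive. Meninges slopes were positive for 8 of 8 (0.23), beside 49.4% of all genes. Of the choroid plexus slopes, 3 were negative at an unadjusted p under 0.05, beside 1.25% of all genes.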

How the data were processed

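Gene expression was measured by total RNA sequencing in 31 mouse brain libraries, grouped by the agent in their labels (13 control, 18 deltamethrin). Replicate numbers were given in sample order and pair no libraries. The authors deposited raw, unnormalized counts for each Ensembl gene (48795 genes, 10581 without a count). Per the submitters' processing notes the tools named are Trimmomatic, HISAT2, SAMtools and MultiQC and the build is GRCm38; the counting tool, its annotation and its strand setting are not given in the sources used here, so reads of overlapping and antisense genes may be shared. Gene IDs were matched to GENCODE M21 (48435 found, 99.3%; 243 symbols replaced), whose coordinates are printed.

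Libraries were classed by Fos CPM of the total without the 37 mitochondrial genes. Printed CPM values use that total. Fos was kept in library sizes and left out of the tests. Genes were filtered with filterByExpr (minimum count 10, minimum total 15), scaled with TMM factors (0.660 to 1.09) and tested with edgeR (4.0.16, R 4.3.3) glmQLFit and glmQLFTest, robust=TRUE, agent as covariate, with Benjamini-Hochberg adjustment over all genes tested and a threshold of 0.05. Standard errors were derived as the absolute log2 fold change over the root of the F statistic. The same test served the interaction of agent and class and the slopes on log2 Fos. Measures of a library were compared by exact permutation within agent (64680 arrangements), and Fos between agents with 100000 resamples. For the wider choice of libraries the measures were compared with 100000 draws within agent. The pipeline was tested on simulated data.

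The libraries, gene lists and marker lists were chosen with earlier results of these data known. Genes were named by a rule: those that passed with a mean of at least 1 CPM and the same direction in both agents, up to 3 members of each list with the smallest p-value, and Npas4, Arc, Egr1, Junb, Fosb, Nr4a1, Dusp1 and Homer1. Other genes were chosen after their values were seen. Alternatives were RLE and no scaling, other count filters, DESeq2 (1.42.0), limma voom (3.58.1), robust=FALSE, mitochondrial genes left out, a mitochondrial rRNA covariate, no agent term, other choices of libraries, and each library left out. Those added after seeing the data were leaving out the 2 libraries of highest Fos, each agent alone, the cerebellar marker covariate, and all alternatives of the 31-library slope.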

Additional observations from a re-analysis of the deposited data

Results flagged for a closer look

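Within the 4 classes of 4 or 6 libraries (high and low, by agent), 152 group values were examined for a library far from the others of its class, and 26 were found. Chance flags about 1 in 20 groups, but the classes were chosen by Fos, so this rate is no test of the flags on Fos and on genes that moved with it, which are descriptions. Of the 26, 15 were in deltamethrin replicate 5 and 8 in control replicate 10, the 2 libraries of highest Fos.

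Deltamethrin replicate 5 was the highest of the 6 high deltamethrin libraries for Fos (45.7 CPM, next 12.2), Arc (404 CPM), Nr4a1 (102 CPM), Ccn1 (6.46 CPM), Junb (176 CPM), Fosb (43.5 CPM, next 8.15) and Egr4 (50.9 CPM). It was also the highest for Btg2 (42.7 CPM), Arl4d (53.7 CPM), Nptx2 (91.2 CPM), Ptgs2 (53.6 CPM, next 8.29), Cdkn1a (19.6 CPM), Dnajb1 (65.9 CPM) and Nfil3 (14.4 CPM). It was the lowest of that class for Map2k1 (227 CPM).

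Control replicate 10 was the highest of the 4 high control libraries for Arc (281 CPM), Fosb (44.9 CPM, next 13), Fosl2 (59.1 CPM), Egr4 (56.8 CPM), Ier5 (95.6 CPM), Nptx2 (122 CPM, next 33.4), Ptgs2 (24.4 CPM) and Socs3 (12.3 CPM).

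Among the 6 low deltamethrin libraries, replicate 8 had the highest mitochondrial rRNA share (26.3%, next 14.7%) and the lowest Map2k1 (211 CPM). Replicate 16 had the highest Per2 (29.7 CPM, next 24.6).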

How the results depend on the processing

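No paired analysis was possible because the labels give no replicate numbers that pair the samples. The count of genes that passed between high and low libraries, 6 in the main analysis, was 11 without scaling factors (which moved the median of all genes to 0.08), 3 without a count filter, 15 with DESeq2, 2 without the agent term, 3 with libraries chosen by CPM of the whole total, 2 with a narrower and 2 with a wider choice of libraries. It was 45 with log2 Fos as a number in 31 libraries, 2 in control alone and 0 in deltamethrin alone, and from 1 to 11 with 1 library left out. It was 6 with RLE factors, limma voom, robust=FALSE, mitochondrial genes left out or the 2 libraries of highest Fos left out, 5 with a mean count of at least 50, and 4 with the mitochondrial rRNA covariate, without Nr4a1 and Arc. The cause of these shifts was not tested. Egr1 passed in every one of these fits except the one on deltamethrin libraries alone.

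The counts for the interaction and for the 11 unselected libraries were 0 under all alternatives run, leaving out each library included. The 31-library count of 45 became 13 without the 2 libraries of highest Fos.

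The mitochondrial rRNA share high minus low was -4.98 points with the wider choice (exact permutation p = 0.0475) and -6.87 with libraries chosen on the whole total (p = 0.0452). With 1 library left out it ran from -5.98 to -2.45. The number of detected genes high minus low was -42.6 with the narrower choice and ran from -162 to 248.9 with 1 library left out, the lowest without control replicate 2.

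Near-zero fold changes turned negative as follows. Nfkbid log2 fold change was -0.13 with the whole-total choice, -0.0544 with the narrower and -0.0667 with the wider choice. Nfkbiz log2 fold change was -0.0037 with the whole-total choice, -0.0626 with the wider choice, -0.0103 without the 2 libraries of highest Fos and -0.0243 in control alone. Homer1 log2 fold change was -0.125 without those 2 libraries, -0.136 in control alone and -0.0345 with the cerebellar covariate, and ran from -0.0580 to 0.0917 with 1 library left out.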
